A study of Arabidopsis thaliana with 18 samples.

Results

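The D-type cyclins and inhibitors of cyclin-dependent kinases (CDKs) described here are 10 of the 23790 genes in the deposited count table of Arabidopsis thaliana leaves, taken by their locus identifiers. The 6 cyclins are CYCD3;1 (AT4G34160), CYCD3;2 (AT5G67260), CYCD3;3 (AT3G50070), CYCD1;1 (AT1G70210), CYCD2;1 (AT2G22490) and CYCD4;1 (AT5G65420). The 4 inhibitors are KRP1 (AT2G23430, listed as ICK1 in RefSeq), KRP2 (AT3G50630), SIM (AT5G04470) and SMR1 (AT3G10525, listed as LGO in RefSeq). Of the 10 genes, 9 passed the filter on low counts, and CYCD4;1 did not.

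Leaf RNA came from 2 transgenic lines that carry an artificial microRNA (amiRNA) induced by dexamethasone, a synthetic glucocorticoid. The amiRNA of the NAA50 line targets transcripts of NAA50, a gene for an enzyme that acetylates the N-termini of proteins. The scrambled line, its control, carries a scrambled amiRNA and was sprayed with the same 50 µM dexamethasone. The 6 groups are each line at 0, 12 and 24 h, with 3 libraries per group, and each library holds RNA of the 4th leaf of 4 pooled plants grown in 8 h of light per day for 4 weeks. The labels name no promoter for the amiRNA, no number of independent transgenic lines and no unsprayed plants. Dexamethasone is given for the 0 h leaves too, and whether these were taken before or after the spray is not stated. Within a line, the time since the spray, the hour of the day and the age of the leaf cannot be told apart.

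In plants, D-type cyclins bind the kinase CDKA;1, and the complex phosphorylates the retinoblastoma-related protein RBR1, which releases E2F factors that switch on genes of DNA replication. KRP proteins (KIP-related proteins) and the SIM and SMR proteins (SIAMESE and SIAMESE-related) bind CDK-cyclin complexes and lower their activity. CYCD3 genes are known to keep cells of young leaves dividing, while SIM, in trichomes, and SMR1, in giant cells of sepals and leaves, are known to promote endoreduplication, in which DNA is copied without division.

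D-type cyclins reach RBR1 through a short LxCxE motif (leucine, any residue, cysteine, any residue, glutamate) near their start. The coding sequence around it is shown because it is the feature that sets the cyclins apart from the inhibitors. The 6 sequences below, read 5′ to 3′ from the TAIR10.1 genome and RefSeq annotation, hold the 5 codons of the motif in capitals and 9 bases on each side.
CYCD3;1: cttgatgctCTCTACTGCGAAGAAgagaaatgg
CYCD3;2: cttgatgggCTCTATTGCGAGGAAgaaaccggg
CYCD3;3: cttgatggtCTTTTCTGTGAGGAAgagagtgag
CYCD1;1: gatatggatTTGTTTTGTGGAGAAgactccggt
CYCD2;1: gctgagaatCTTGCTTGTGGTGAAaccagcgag
CYCD4;1: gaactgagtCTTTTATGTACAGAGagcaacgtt
The motif occurred at 1 place in each of the 6 cyclins, starting between residue 5 and residue 22, and in none of the 4 inhibitors. The predicted cyclins were 318 to 404 residues long, and the inhibitors were shorter, with 191 residues in KRP1, 209 in KRP2, 127 in SIM and 128 in SMR1. No member had a near-identical copy elsewhere in the genome. The closest pair was CYCD3;2 and CYCD3;3, with 73.6% identity over 1194 aligned transcript bases.

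The stretch upstream of the gene is shown for a pair of members, because CYCD3;2 led the cyclins before induction and was lower in the NAA50 line, and KRP1 was the most abundant inhibitor in the NAA50 line after induction. Each line gives the 250 bases before the annotated transcript start, 5′ to 3′ on the strand of the gene, in TAIR10.1, with motif matches in capitals. CYCD3;2 lies at chr5:26836139-26839597 on the plus strand, with 4 to 6 exons by transcript, and its upstream window is chr5:26835889-26836138. KRP1 lies at chr2:9976590-9978090 on the minus strand, with its window at chr2:9978091-9978340.
CYCD3;2: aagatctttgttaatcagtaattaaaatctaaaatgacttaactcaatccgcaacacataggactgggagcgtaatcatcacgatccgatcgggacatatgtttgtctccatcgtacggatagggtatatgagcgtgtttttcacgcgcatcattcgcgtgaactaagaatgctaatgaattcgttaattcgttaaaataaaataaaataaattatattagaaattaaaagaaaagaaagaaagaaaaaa
KRP1: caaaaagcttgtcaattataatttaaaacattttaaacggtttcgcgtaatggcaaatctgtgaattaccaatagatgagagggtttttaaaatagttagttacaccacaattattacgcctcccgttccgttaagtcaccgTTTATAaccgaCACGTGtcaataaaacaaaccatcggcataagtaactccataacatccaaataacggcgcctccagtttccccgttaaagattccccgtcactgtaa
The letters searched on both strands were the E2F sites TTTCCCGC and TTTGGCGC, the site II element TGGGCC, the class II TCP site GTGGNCCC, the G-box CACGTG and the TATA box TATAAA. KRP1 held a G-box 97 to 92 bases before the start and a TATA box on the opposite strand, and the window of CYCD3;2 held none of the 6. Among the 22882 upstream windows of the annotation, 0.389% held TTTGGCGC, 0.634% TTTCCCGC, 7.21% the G-box, 15.3% site II, 0.739% the TCP site and 46.6% the TATA box. CYCD3;3 alone of the members held TTTGGCGC, 104 to 97 bases before the start, and CYCD1;1 alone held site II. The TATA box was held by CYCD3;3, CYCD2;1, KRP1, KRP2 and SMR1, and no member held TTTCCCGC or the TCP site. These matches describe letters, and no binding was measured.

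Libraries held 10389333 to 12353330 counts, and a gene with no count in a library could still have a level of 0.224 to 0.322 CPM, by library (CPM are counts scaled to library size, the limit is 3 counts, and it covers counting error only). For the targeted gene NAA50 no difference between the lines was called at 0 h (14.0 ± 0.705 CPM in the scrambled line and 12.6 ± 0.932 CPM in the NAA50 line, SD, n = 3, edgeR adjusted p = 0.664). It stood at 15.02 against 3.68 CPM at 12 h and at 16.9 against 3.43 CPM at 24 h. The second scrambled library at 0 h stood apart from the other libraries in the principal components of all genes, where the top 10 genes took 11.2% of all counts, the highest share of any library. The third NAA50 library at 0 h had the lowest KRP2 level of the 0 h libraries. Calls that end without these libraries are named with the results.

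At 0 h the CDK inhibitors SMR1 and KRP1 led the 10 genes. Levels of different genes are compared only as CPM per kb of exon. In the scrambled line at 0 h the mean level over 3 libraries was 41.3 CPM per kb for SMR1, 31.0 for KRP1 and 22.7 for CYCD3;2, and the libraries of these neighbours in the order overlapped. CYCD2;1 (7.44) and KRP2 (6.76) followed and overlapped with each other. Below them came CYCD3;3 at 4.73, CYCD1;1 at 2.99, SIM at 2.77 and CYCD3;1 at 1.72 CPM per kb, of which SIM overlapped with both of its neighbours. CYCD4;1 was last at 0.177 CPM per kb, apart from the rest. The order was different in the NAA50 line at 24 h, where KRP1 led at 61.9 CPM per kb, apart from CYCD3;3 at 28.3, which in turn was apart from SMR1 at 16.6. CYCD3;2, the leading cyclin at 0 h, stood at 6.55 CPM per kb there, the same as SIM, with which its libraries overlapped. KRP2 was at 1.67 CPM per kb, and the lowest gene was again CYCD4;1.

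**Figure D1:**
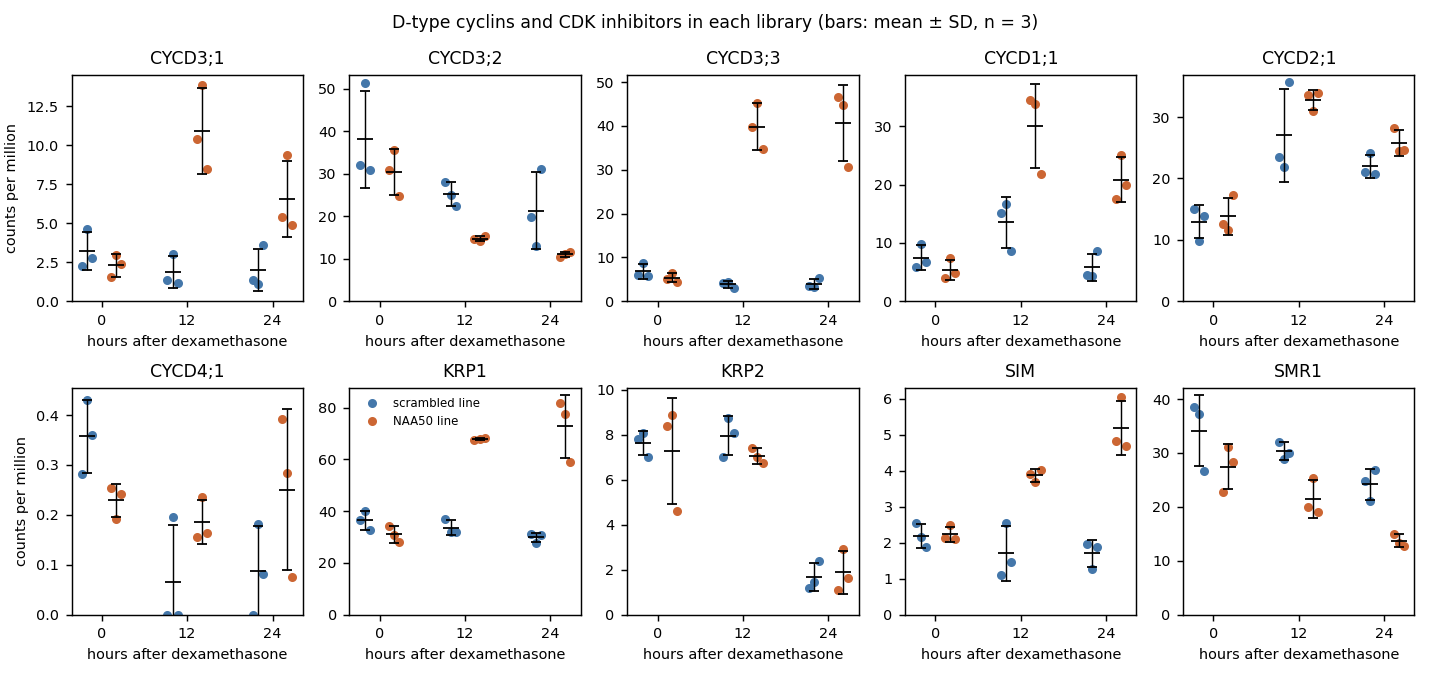
Level of each of the 10 genes in CPM (vertical axis, linear, own scale per gene) in every library against hours after dexamethasone, with horizontal marks and bars for the mean and SD of 3 libraries (bars of CYCD4;1 are clipped at 0). In the panels of 5 genes, among them KRP1 and SIM, all 3 NAA50 line libraries lie above all 3 scrambled libraries at 12 and 24 h. For CYCD3;2 and SMR1 they lie below. How many of all genes have libraries apart in this way was not counted, while 46.2% were called between the lines at 12 h and 47.9% at 24 h.

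The line difference compares the NAA50 line with the scrambled line at the same time. It keeps any difference present at 0 h, so the induced amiRNA and standing differences between the lines cannot be told apart in it. At 12 h CYCD3;1, CYCD3;3, CYCD1;1, KRP1 and SIM were higher in the NAA50 line, and CYCD3;2 and SMR1 were lower, at an edgeR adjusted p under 0.05. These 5 raised and 2 lowered genes make 7 called of 9 tested, where 46.2% of all tested genes were called in either direction and 21.9% were higher. The 24 h comparison called the same 5 genes higher and the same 2 lower, against 47.9% of all genes called in either direction and 23.9% higher. At 0 h no member was called by edgeR, none had an unadjusted p under 0.05, and DESeq2 called 0 as well, against 0.0872% of all genes higher and 0.0109% lower. The median log2 difference of the 9 members was 1.01 at 12 h and 1.28 at 24 h, while that of all tested genes was -0.03 at both times.

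CYCD3;3, at chr3:18565134-18566834 on the minus strand and with 4 exons, showed the largest difference among the members at both times. In the scrambled line its 3 libraries held 5.94, 8.80 and 5.67 CPM at 0 h, 4.19, 4.42 and 2.99 CPM at 12 h and 3.41, 3.26 and 5.21 CPM at 24 h. In the NAA50 line they held 5.17, 6.40 and 4.42 CPM at 0 h, 39.6, 45.3 and 34.7 CPM at 12 h and 46.7, 44.7 and 30.7 CPM at 24 h. The lines overlapped at 0 h, and at 12 and 24 h every NAA50 line library was far above every scrambled library. The gene was 10.3-fold higher at both times, with a log2 difference of 3.36 ± 0.24 SE at 12 h (adjusted p = 5.26e-08) and of 3.35 ± 0.24 at 24 h (adjusted p = 4.21e-08). No alternative analysis ended either call.

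CYCD3;1, known as a cytokinin-induced cyclin, moved the same way at a lower level. It lies at chr4:16357421-16359565 on the plus strand and has 4 exons. The scrambled libraries held 2.26, 4.62 and 2.79 CPM at 0 h, 1.37, 3.05 and 1.18 CPM at 12 h and 1.35, 1.09 and 3.58 CPM at 24 h. In the NAA50 line they held 1.53, 2.96 and 2.41 CPM at 0 h, 10.4, 13.9 and 8.46 CPM at 12 h and 5.41, 9.37 and 4.92 CPM at 24 h. Both lines overlapped at 0 h and were apart at both later times. The difference was 5.85-fold at 12 h (log2 2.56 ± 0.45 SE, adjusted p = 0.000296), and 24 h gave 3.27-fold (log2 1.68 ± 0.44, adjusted p = 0.00573). The scrambled values rest on 12 to 44 counts per library, and 40 bases of the gene overlap with AT4G34150 on the same strand.

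CYCD3;2, the most abundant CYCD3 gene at 0 h, went the other way. The scrambled libraries held 32.0, 51.3 and 31.0 CPM at 0 h, 28.0, 25.1 and 22.4 CPM at 12 h and 19.9, 13.0 and 31.0 CPM at 24 h. By contrast, the NAA50 line held 30.8, 35.5 and 24.8 CPM at 0 h, 14.7, 14.2 and 15.4 CPM at 12 h and 10.4, 11.2 and 11.5 CPM at 24 h. Values of the lines overlapped at 0 h, and the NAA50 line libraries were all lower at 12 and 24 h, close together, while the scrambled libraries at 24 h were spread widely. The scrambled line was 1.70-fold higher at 12 h (log2 difference -0.77 ± 0.25 SE, adjusted p = 0.0202), and 24 h gave 1.94-fold (log2 -0.95 ± 0.26, adjusted p = 0.00649). The 12 h call ended without scrambled library 1 (adjusted p = 0.0693), NAA50 line library 1 (0.0537) or NAA50 line library 2 (0.0570). The 24 h call ended without scrambled library 3 (log2 -0.58, adjusted p = 0.0517), and a stretch of 220 bases overlaps with AT5G67265 on the opposite strand, whose reads may not be separable since the strand setting of the counting is not given.

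The 3 CYCD3 genes were also summed, to see which of them made up the level of the family. The summed level was 29.1 ± 8.65, 18.6 ± 2.29 and 16.5 ± 6.82 CPM per kb in the scrambled line at 0, 12 and 24 h (SD, n = 3), and 23.0 ± 4.04, 42.3 ± 4.80 and 38.3 ± 6.55 CPM per kb in the NAA50 line. The NAA50 line libraries ran from 37.7 to 47.3 at 12 h and from 30.8 to 42.7 at 24 h, above all scrambled libraries of the same time, which reached 20.3 and 24.0 CPM per kb. CYCD3;2 made up 77.8%, 80.4% and 76.5% of this sum in the scrambled line and 78.5%, 21.0% and 17.5% in the NAA50 line. CYCD3;3 made up 16.4%, 14.3% and 17.4% in the scrambled line and 16.1%, 65.4% and 73.4% in the NAA50 line. The libraries of the 2 lines did not overlap for either share at 12 and 24 h, and the two-sided exact permutation test gave p = 0.1 for each, which is the smallest that 3 libraries against 3 can give. The remaining share, of CYCD3;1, was 5.27% against 13.6% at 12 h (exact permutation p = 0.1) and 6.09% against 9.06% at 24 h (exact permutation p = 0.2).

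**Figure D2:**
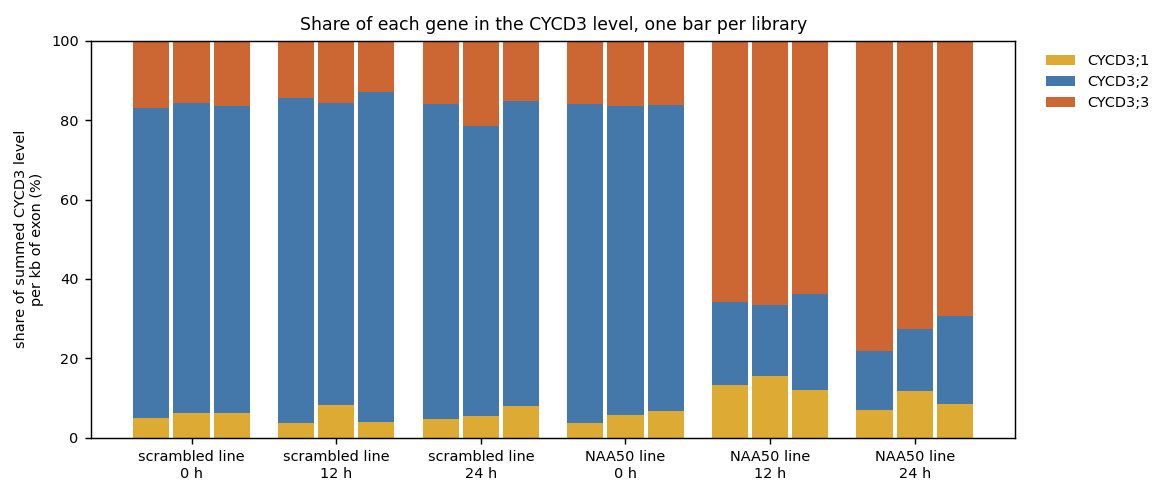
Share of each of the 3 CYCD3 genes in their summed level per kb of exon (vertical axis, percent), with 1 bar for each of the 18 libraries, grouped by line and time. CYCD3;2 takes most of each bar in the scrambled line and at 0 h in the NAA50 line, and CYCD3;3 takes most of each bar in the NAA50 line at 12 and 24 h (means of 65.4% and 73.4%).

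CYCD1;1 was also higher in the NAA50 line after induction, and it was called as rising from 0 to 12 h in the scrambled line too. It lies at chr1:26439556-26443007 on the plus strand and has 6 exons. The scrambled libraries held 5.94, 9.88 and 6.66 CPM at 0 h, 15.2, 16.7 and 8.61 CPM at 12 h and 4.58, 4.26 and 8.55 CPM at 24 h. The NAA50 line libraries gave 3.99, 7.36 and 4.83 CPM at 0 h, 34.5, 33.8 and 21.8 CPM at 12 h and 17.5, 25.2 and 19.98 CPM at 24 h. The 2 lines overlapped at 0 h, and at 12 and 24 h every NAA50 line library was above every scrambled library, with both lines highest at 12 h by their means. The difference was 2.22-fold at 12 h (log2 1.15 ± 0.30 SE, adjusted p = 0.00542), and 24 h gave 3.60-fold (log2 1.84 ± 0.32, adjusted p = 0.000256). A stretch of 144 bases of the gene overlaps with AT1G70209, a gene of the table on the opposite strand.

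CYCD2;1, a cyclin known to respond to sugar, rose in both lines, and no line difference was called at any time. It lies at chr2:9553797-9556167 on the minus strand and has 6 exons. The scrambled libraries held 15.1, 9.88 and 14.0 CPM at 0 h, 23.4, 21.9 and 35.6 CPM at 12 h and 21.1, 24.11 and 20.7 CPM at 24 h. In the NAA50 line, values were 12.6, 11.6 and 17.3 CPM at 0 h, 33.5, 31.0 and 33.9 CPM at 12 h and 28.2, 24.5 and 24.6 CPM at 24 h. Overlap between lines was seen at 0 and 12 h, while at 24 h the NAA50 line libraries were all slightly higher. The log2 difference was 0.28 ± 0.19 at 12 h (adjusted p = 0.234), and 24 h gave 0.23 ± 0.19 (adjusted p = 0.329). The 12 h difference was called without scrambled library 3 (log2 0.53, adjusted p = 0.0250).

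CYCD4;1, a cyclin known from stomatal and lateral root development, was close to the limit of detection. It lies at chr5:26141470-26144020 on the minus strand, with 5 to 7 exons by transcript. Its libraries held 0 to 4 counts in the scrambled line and 1 to 4 counts in the NAA50 line, with group means of 0.0655 to 0.357 CPM. No fold is given, since levels were at or near that of 3 counts in every group.

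Among the inhibitors, KRP1 was higher in the NAA50 line at both times. The scrambled libraries held 36.4, 40.2 and 32.8 CPM at 0 h, 36.8, 32.0 and 31.9 CPM at 12 h and 31.0, 27.8 and 30.7 CPM at 24 h. Values in the NAA50 line were 34.2, 30.9 and 27.9 CPM at 0 h, 67.5, 67.9 and 68.1 CPM at 12 h and 81.8, 77.4 and 59.1 CPM at 24 h. The scrambled libraries ran from 27.8 to 40.2 CPM, and those at 24 h were all below those at 0 and 12 h. This fall was not called (0 to 24 h log2 -0.29 ± 0.12, adjusted p = 0.0576). It was called with a replicate block (0.0426) and without scrambled 0 h library 3 (0.0356), NAA50 line 0 h library 3 (0.0416) or NAA50 line 24 h library 3 (0.0252). The NAA50 line libraries lay in the scrambled range at 0 h and well above it at 12 and 24 h. KRP1 was 2.02-fold higher at 12 h (log2 1.01 ± 0.12 SE, adjusted p = 1.03e-05), and 24 h gave 2.44-fold (log2 1.28 ± 0.12, adjusted p = 8.4e-07), and no alternative ended either call.

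KRP2, which limits CDK activity in the same way, fell late in both lines, and no difference between them was called. It lies at chr3:18800306-18801595 on the plus strand, with 3 to 4 exons by transcript. The scrambled libraries held 7.82, 8.05 and 7.02 CPM at 0 h, 7.02, 8.75 and 8.07 CPM at 12 h and 1.17, 1.45 and 2.36 CPM at 24 h. For the NAA50 line they were 8.40, 8.88 and 4.59 CPM at 0 h, 7.43, 6.98 and 6.74 CPM at 12 h and 1.08, 2.93 and 1.64 CPM at 24 h. Libraries of both lines overlapped at every time, and in both the 24 h libraries were all below the earlier ones. From 12 to 24 h KRP2 fell by 2.24 ± 0.31 on the log2 scale in the scrambled line (adjusted p = 0.000133) and by 1.90 ± 0.31 in the NAA50 line (adjusted p = 0.000579). The log2 difference between the lines was -0.17 ± 0.27 at 12 h (adjusted p = 0.637), and 24 h gave 0.17 ± 0.35 (adjusted p = 0.718).

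SIM was higher and SMR1 lower in the NAA50 line, although both belong to the SIM and SMR family. Both genes are a stretch of 1 exon on the minus strand, SIM at chr5:1266625-1267416 and SMR1 at chr3:3281306-3282131. For SIM the scrambled libraries held 2.54, 2.15 and 1.89 CPM at 0 h, 1.09, 2.56 and 1.45 CPM at 12 h and 1.97, 1.27 and 1.87 CPM at 24 h. NAA50 line libraries had 2.12, 2.48 and 2.09 CPM at 0 h, 3.91, 3.69 and 4.03 CPM at 12 h and 4.82, 6.05 and 4.70 CPM at 24 h. The lines overlapped at 0 h and were apart later, with the NAA50 line higher. SIM was 2.28-fold higher at 12 h (log2 1.19 ± 0.26 SE, adjusted p = 0.00154), and 24 h gave 3.04-fold (log2 1.60 ± 0.25, adjusted p = 0.000114). These values rest on 12 to 64 counts per library, and 338 bases of SIM overlap with AT5G04475 on the opposite strand.

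For SMR1 the scrambled libraries held 38.5, 37.3 and 26.7 CPM at 0 h, 32.1, 28.8 and 29.9 CPM at 12 h and 24.8, 21.1 and 26.8 CPM at 24 h. Libraries of the NAA50 line held 22.8, 31.0 and 28.4 CPM at 0 h, 20.01, 25.4 and 19.0 CPM at 12 h and 15.04, 13.2 and 12.8 CPM at 24 h. Both lines overlapped at 0 h, and the NAA50 line libraries were all lower at 12 and 24 h. The scrambled line was 1.41-fold higher at 12 h (log2 difference -0.50 ± 0.16 SE, adjusted p = 0.0175), and 24 h gave 1.77-fold (log2 -0.83 ± 0.16, adjusted p = 0.000666). The 12 h call ended without scrambled library 1 (adjusted p = 0.0601), NAA50 line library 1 (0.0667) or NAA50 line library 3 (0.0757), and under scaling by total counts alone (log2 -0.33, adjusted p = 0.0836). A stretch of 375 bases of SMR1 overlaps with AT3G10527 on the opposite strand.

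**Figure D3:**
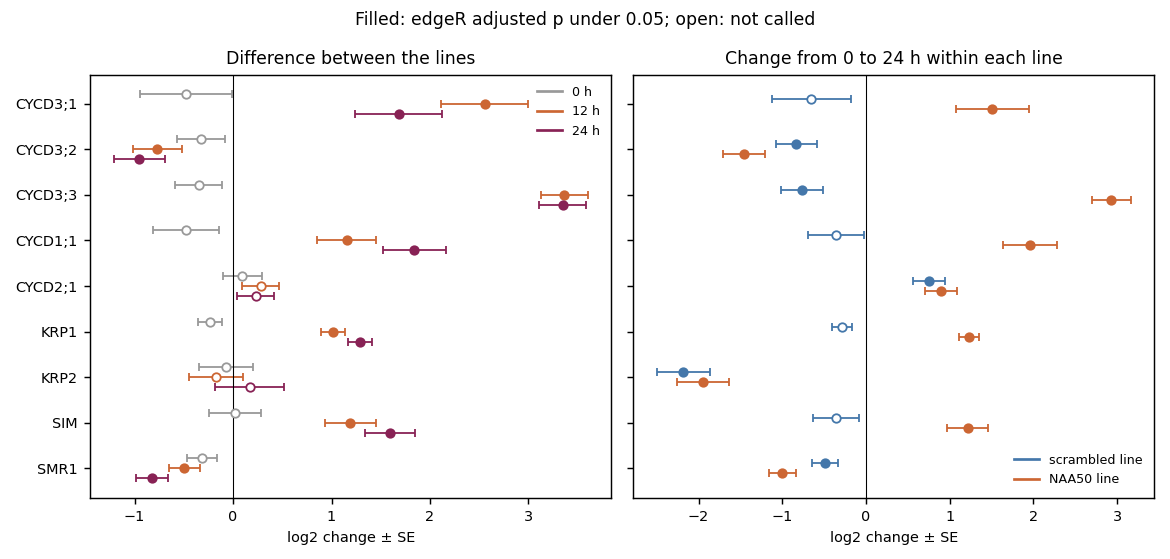
Log2 change with its SE (horizontal axis) for the 9 tested genes, as the NAA50 line minus the scrambled line at each time (left) and as the change from 0 to 24 h in each line (right), with filled points at an edgeR adjusted p under 0.05. No point at 0 h is filled, and at 12 and 24 h the 5 raised genes lie right of 0 and the 2 lowered genes left of it.

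The knockdown response is the line difference at 12 or 24 h minus that at 0 h, so it asks whether the 2 lines changed differently after the spray. The responses at 12 and 24 h share the 0 h libraries of both lines. The 5 raised genes responded upwards at 12 h, 5 of 9 tested against 11.8% of all genes, and no member responded downwards against 13.2%. At 24 h the same 5 were called higher and none lower, against 14.7% of all genes higher and 15.1% lower. Of the downward responses, none had an unadjusted p under 0.05 at 12 h and 1, that of SMR1, had one at 24 h, and DESeq2 called 0 at both times. The log2 response was 3.71 ± 0.34 SE at 12 h and 3.70 ± 0.34 at 24 h for CYCD3;3, 3.03 ± 0.64 and 2.16 ± 0.64 for CYCD3;1, and 1.63 ± 0.45 and 2.32 ± 0.46 for CYCD1;1. It was 1.25 ± 0.17 and 1.52 ± 0.17 for KRP1, and 1.17 ± 0.37 and 1.57 ± 0.37 for SIM. The response of CYCD3;2 was -0.44 ± 0.35 at 12 h (adjusted p = 0.376), then -0.63 ± 0.35 at 24 h (adjusted p = 0.197), and that of SMR1 was -0.18 ± 0.22 (0.590) and -0.51 ± 0.22 (0.0994), so the lower values of these genes were not called once the 0 h difference was taken off. Responses of CYCD2;1 were 0.19 ± 0.27 and 0.14 ± 0.27, and those of KRP2 -0.10 ± 0.39 and 0.24 ± 0.45, none of them called.

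Some responses rest on few libraries. The SIM response at 12 h (adjusted p = 0.0306) ended when any of 7 libraries was left out: scrambled 0 h library 1 (0.0745), scrambled 12 h libraries 1 (0.0742) and 3 (0.0675), NAA50 line 0 h libraries 1 (0.0597) and 3 (0.0505), and NAA50 line 12 h libraries 1 (0.0565) and 3 (0.0536). The CYCD3;1 response at 24 h (adjusted p = 0.0195) ended without library 2 at 0 h (0.0546) or 1 at 24 h (0.0502) of the scrambled line, or library 2 at 24 h (0.0573) of the NAA50 line. Without both scrambled 0 h library 2 and NAA50 line 0 h library 3, the 12 h response was called for 3 members in place of 5, since CYCD1;1 (adjusted p = 0.0728) and SIM (0.0707) were lost. The 24 h response of CYCD3;1 was also lost without them (0.0788), while CYCD3;2 gained a called 24 h response of -1.03 (adjusted p = 0.0419), as it did without scrambled 24 h library 2 (log2 -0.88, adjusted p = 0.0417), and SMR1 gained a 24 h response under scaling by total counts (log2 -0.61, adjusted p = 0.0402).

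The line differences at 12 and 24 h were also set against each other. No member was called for a difference between them by edgeR (0 at an unadjusted p under 0.05, 0 by DESeq2), against 4.43% of all genes with a higher and 2.34% with a lower line difference at 24 h. The change in line difference was -0.87 ± 0.63 for CYCD3;1, 0.69 ± 0.43 for CYCD1;1, 0.27 ± 0.17 for KRP1, 0.40 ± 0.36 for SIM and -0.33 ± 0.23 for SMR1 on the log2 scale.

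Within the NAA50 line, the 5 raised genes and CYCD2;1 rose from 0 to 12 h and CYCD3;2 fell. These are 6 members higher and 1 lower of 9 tested, against 26.2% of all genes higher and 24.4% lower. The log2 rise was 2.90 ± 0.23 for CYCD3;3, 2.49 ± 0.32 for CYCD1;1, 2.25 ± 0.43 for CYCD3;1, 1.24 ± 0.19 for CYCD2;1, 1.13 ± 0.12 for KRP1 and 0.80 ± 0.25 for SIM, and the fall was 1.04 ± 0.25 in size (log2 -1.04). The rise of SIM was lost without both scrambled 0 h library 2 and NAA50 line 0 h library 3 (adjusted p = 0.0510). From 0 to 24 h the same 6 members were higher, and CYCD3;2 (fell by 1.46 ± 0.26), KRP2 (fell by 1.94 ± 0.31) and SMR1 (fell by 1.004 ± 0.16) were lower, against 28.1% and 26.4% of all genes. From 12 to 24 h KRP2 and SMR1 fell, neither of them called from 0 to 12 h, SMR1 by 0.65 ± 0.16 (adjusted p = 0.0104), and no member rose (0 by DESeq2, and 0 at an unadjusted p under 0.05), against 10.4% of all genes higher and 9.68% lower. The SMR1 fall was lost without NAA50 line 12 h library 2 (adjusted p = 0.0635). From 0 to 12 h the log2 change of SMR1 was -0.35 ± 0.16 (adjusted p = 0.0738). That change was called without scrambled 0 h library 3 (0.0441), NAA50 line 0 h library 1 (0.0314) or NAA50 line 12 h library 2 (0.0281).

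The same changes were taken in the scrambled line. From 0 to 12 h CYCD2;1 (log2 1.05 ± 0.19) and CYCD1;1 (0.86 ± 0.32) rose and CYCD3;3 fell by 0.81 ± 0.25, 2 members higher and 1 lower against 23.7% and 20.5% of all genes. The log2 change of CYCD3;2 was -0.60 ± 0.25, with all 12 h libraries below the 0 h libraries, and was not called (adjusted p = 0.0595), though DESeq2 (0.0368) and the fit to only the groups compared (0.0498) called it, as did 4 of the fits that left out a library. The CYCD1;1 rise (adjusted p = 0.0403) was lost when any of 5 libraries was left out, which are libraries 1 (0.133) and 3 (0.104) at 0 h and 1 (0.111) and 2 (0.143) at 12 h of the scrambled line and library 3 (0.0545) at 0 h of the NAA50 line, and with only the groups compared (0.0534). The CYCD3;3 fall (adjusted p = 0.0161) was lost without library 2 at 0 h (0.0739) or 3 at 12 h (0.0772). From 0 to 24 h CYCD2;1 was higher (0.75 ± 0.19) and CYCD3;2 (fell by 0.83 ± 0.25), CYCD3;3 (fell by 0.77 ± 0.25), KRP2 (fell by 2.18 ± 0.32) and SMR1 (fell by 0.49 ± 0.16) were lower, 1 higher and 4 lower against 27.6% and 26.5% of all genes. Without scrambled 0 h library 2 the calls of both CYCD3 genes (0.0698 and 0.0905, in that order) and SMR1 (0.0508) ended, and that of CYCD3;2 also ended with only the groups compared (0.0715). The CYCD3;3 call also ended without libraries 1 (0.0636) or 2 (0.0716) of the scrambled line at 24 h. That of SMR1 ended when library 1 at 0 h (0.0689) or 2 at 24 h (0.0713) of the scrambled line was left out.

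From 12 to 24 h in the scrambled line CYCD1;1 fell by 1.21 ± 0.32 (adjusted p = 0.0115) and KRP2 fell as given above, and no member rose (0 by DESeq2, and 0 at an unadjusted p under 0.05), against 14.4% of all genes higher and 16.3% lower. The first of these calls ended without library 2 at 12 h (0.0555) or library 1 (0.0535) or 2 (0.0604) at 24 h. The changes from 0 h in 1 line share its 0 h libraries.

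Other genes of the same pathway were taken from lists, with 51 of 68 listed genes tested. Their calls stand beside 46.2% of all tested genes called between the lines at 12 h and 47.9% at 24 h. Among the 3 tested of 4 other D-type cyclins, none was called at 12 h, and at 24 h CYCD4;2 (4.203 ± 0.612 CPM in the scrambled line and 2.002 ± 0.428 CPM in the NAA50 line, SD, n = 3) and CYCD6;1 (1.85 ± 0.423 and 0.674 ± 0.521 CPM) were lower in the NAA50 line, a count that was 1 with only the groups compared and without library 1 or 3 of either line at 24 h. Neither had a called response at 24 h (adjusted p = 0.0554 and 0.177, in that order). Of 4 tested of 5 other KRP inhibitors, KRP7 was higher at 12 h (0.743 ± 0.305 against 4.27 ± 0.146 CPM) and at 24 h (0.832 ± 0.407 against 6.16 ± 0.479 CPM, log2 2.86 ± 0.32, adjusted p = 4.5e-06). KRP5 joined it at 24 h (log2 1.41 ± 0.33, adjusted p = 0.00273, response not called at 0.306), and no KRP was lower. Of 6 tested of 9 other SIM and SMR family genes, 2 were higher and 1 lower at 12 h, and 3 were higher and 1 lower at 24 h, where 46.2% and 47.9% of all genes were called in either direction. AT5G40460, annotated as a cyclin-dependent kinase inhibitor, rose most among them, from 1.53 ± 0.989 CPM in the scrambled line to 12.6 ± 2.73 CPM in the NAA50 line at 12 h and from 0.431 ± 0.152 to 8.80 ± 3.19 CPM at 24 h. AT1G51355 was higher at both times (log2 1.75 ± 0.33 and 1.52 ± 0.39), and SMR5, known to respond to DNA damage and reactive oxygen, was higher at 24 h (log2 1.45 ± 0.38). Levels of AT1G51355 were low, at 0.560 against 1.91 CPM at 12 h and 0.322 against 0.943 CPM at 24 h. Its scrambled mean at 24 h was near the level of 3 counts. The responses of AT1G51355 (adjusted p = 0.239 at 12 h and 0.362 at 24 h) and of SMR5 at 24 h (0.111) were not called. The lower gene at 12 h was AT1G08180 (log2 -0.71 ± 0.26), whose response was not called (adjusted p = 0.662). At 24 h it was AT1G10690 (6.93 ± 0.629 against 4.12 ± 1.24 CPM), whose response was called lower (log2 -0.93 ± 0.29, adjusted p = 0.0272).

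Few of the kinases and the RBR and E2F genes were called, where 46.2% of all tested genes were called at 12 h and 47.9% at 24 h. Of 7 tested of 9 CDKs, CDKA;1, the partner of D-type cyclins, was higher at 12 h (50.0 ± 5.17 against 66.7 ± 3.32 CPM, log2 0.42 ± 0.11) and CDKF;1, a CDK-activating kinase, at 12 and 24 h (log2 0.66 ± 0.11 at each), and none was lower. Of 8 tested of 9 RBR and E2F genes, E2FA was lower at 12 h (log2 -1.08 ± 0.25), and E2FB (1.05 ± 0.15) and E2FC (0.49 ± 0.15) were higher at 24 h. The log2 difference of RBR1 was -0.37 ± 0.15 at 12 h (adjusted p = 0.0526), and its response at 12 h was called lower (-0.62 ± 0.21, adjusted p = 0.0416). The responses of E2FA at 12 h (adjusted p = 0.0826) and E2FC at 24 h (0.624) were not called, and that of E2FB at 24 h was (0.0184).

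Genes of DNA replication, whose transcription E2F factors drive, were lower in the NAA50 line at 12 h, when 3 D-type cyclins were higher. Of 11 tested genes 10 were lower and none higher, where 46.2% of all tested genes were called in either direction and 21.9% were higher. The median log2 difference was -1.22 against -0.03 for all genes. PRL, a subunit of the MCM helicase, stood at 3.48 ± 0.869 CPM in the scrambled line and 1.01 ± 0.266 CPM in the NAA50 line (log2 -1.77 ± 0.32, adjusted p = 0.000403), and PCNA2, a sliding clamp of DNA polymerase, at 4.00 ± 0.314 and 1.82 ± 0.487 CPM. The count of lower genes ran from 7 to 10 over the alternatives. At 24 h PCNA1 alone was lower (log2 -0.83 ± 0.32), and within the NAA50 line all 11 rose from 12 to 24 h, against 10.4% of all genes. From 0 to 12 h, 5 of the 11 fell in the scrambled line, against 20.5% of all genes. In the NAA50 line 10 fell over that time, against 24.4%. As a response from 0 h, 4 were lower at 12 h (PCNA2, MCM4, MCM2 and PRL), against 13.2% of all genes and with a count that ran from 1 to 6, and none was called at 24 h.

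Of 8 tested of 15 S-phase and mitotic cyclins, CYCB1;2 was lower at 12 h (log2 -1.50 ± 0.53, adjusted p = 0.0298) and CYCA2;2 was higher at 24 h (0.324 ± 0.193 against 2.30 ± 0.632 CPM, log2 2.80 ± 0.40). The response of CYCB1;2 at 12 h was not called (log2 -0.64 ± 0.66, adjusted p = 0.515), and that of CYCA2;2 at 24 h was (0.0139). The mean of CYCB1;2 in the NAA50 line at 12 h was 0.292 CPM, near the level of 3 counts. Of 4 tested of 6 endocycle regulators, 3 were higher at 12 h and 2 at 24 h, against 21.9% and 23.9% of all genes. CCS52A1, an activator of the anaphase-promoting complex that promotes the endocycle, stood at 7.13 ± 0.517 against 15.01 ± 1.58 CPM at 12 h and at 8.29 ± 0.999 against 13.3 ± 1.16 CPM at 24 h. CCS52A2 was higher at both times (log2 0.51 ± 0.18 and 0.92 ± 0.17), and CCS52B at 12 h (log2 1.13 ± 0.32). No DNA content was measured.

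**Figure D4:**
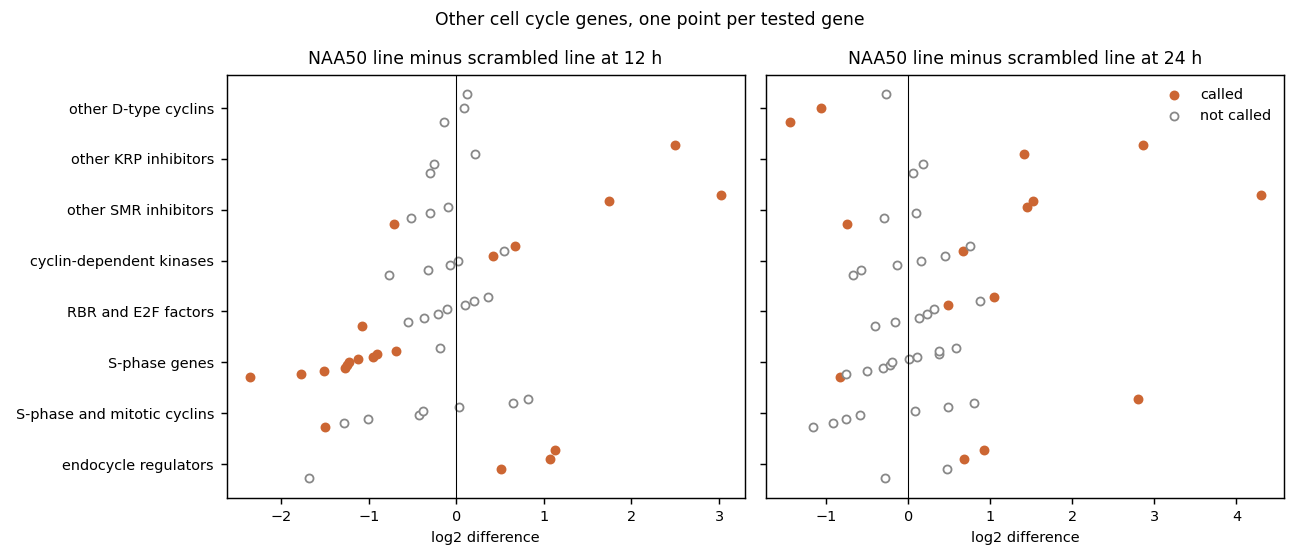
Log2 difference between the NAA50 line and the scrambled line (horizontal axis) at 12 h (left) and 24 h (right) for each tested gene of 8 lists of cell cycle genes, filled where the edgeR adjusted p was under 0.05. The S-phase genes lie left of 0 at 12 h, with 10 of 11 filled, and 1 of 11 is filled at 24 h. Of all tested genes 46.2% were called at 12 h and 47.9% at 24 h.

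Markers of leaf cell types were summed over each list, since fewer cells of a type and less RNA per cell cannot be told apart in bulk tissue. The 4 leaf mesophyll markers were all detected in every group, and their sum was 27652 to 32988 CPM in the scrambled line and 12236 to 16949 CPM in the NAA50 line at 12 h, and 15871 to 26124 against 11675 to 14765 CPM at 24 h. At 0 h it was 33269 to 47352 against 26466 to 36276 CPM. RBCS1A, RCA and CAB2 had no called response at 12 or 24 h, while that of CA1 was called lower at both times. Line differences of RCA and CAB2 were not called at 24 h. Of 6 shoot meristem markers 4 were in the table and none passed the filter, with sums of at most 0.362 CPM and STM at 0 in every group but the NAA50 line at 0 h. All 6 stomatal lineage markers were in the table and 2 were tested, FAMA and TMM, neither of them called, with sums of 7.45 to 16.6 CPM. MUTE was at 0 in every group but the NAA50 line at 0 h. The sum of 4 trichome markers in the table, of 5 listed, was 11.1 to 16.9 against 2.55 to 4.31 CPM at 12 h and 3.44 to 7.18 against 0.969 to 1.89 CPM at 24 h. At 0 h it was 5.04 to 5.84 against 4.91 to 5.73 CPM. TRY made up most of the sum in both lines at 12 h and in the scrambled line at 24 h, while in the NAA50 line at 24 h MYB23 (0.654 CPM) was above TRY (0.547 CPM). From 0 to 12 h the mean of TRY went from 2.84 to 11.3 CPM in the scrambled line and from 2.50 to 2.22 CPM in the NAA50 line. GL2 and MYB23 had no called response, and of their line differences only that of GL2 at 24 h was called, as lower. SIM, a gene known from trichomes, was higher in the NAA50 line at both times. The 5 vascular markers summed to 483 to 541 CPM at 12 h and 575 to 944 CPM at 24 h in the NAA50 line, against 208 to 301 CPM over the 3 scrambled groups. Most of that was the phloem transporter gene SUC2 (479 and 787 CPM in the NAA50 line), while the cambium gene PXY and the procambium gene ATHB-8 were lower at both times, and the cambium gene WOX4 was lower at 24 h. The remaining gene, APL, was not called at 12 h and was higher at 24 h (18.3 against 23.4 CPM). Responses of SUC2 were called higher and those of PXY lower at both times, while those of ATHB-8, WOX4 and APL were not called. The mesophyll and trichome sums were thus lower in the NAA50 line at 12 and 24 h, and the vascular sum was higher. Members were called in both directions, and the part of these sums in the result was not tested.

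Genes with the pattern most like that of a member were taken as the 3 with the highest Pearson correlation of log2 CPM over the 18 libraries, among 15911 candidates, as a description in which all genes share the libraries and their groups. For CYCD3;3 these were QWRF8 (r = 0.989), ACLB-1 (0.988) and AGO10 (0.988), and for CYCD3;1 AT3G02900 (0.963), CINV2 (0.945) and DWF4 (0.938). For CYCD3;2 they were EMB2369 (0.987), PHT4;1 (0.981) and PDE327 (0.981), and for CYCD1;1 BGAL3 (0.981), bHLH093 (0.959) and AT3G49810 (0.950). KRP1 was most like AT1G18610 (0.979), KLCR3 (0.977) and KT1 (0.976), and SIM most like FaTA (0.949), UBC17 (0.944) and APG12B (0.932). SMR1 was most like AT2G21530 (0.962), CYTC6A (0.959) and AT5G67390 (0.952). No other member was among the 3 genes of any member. With the correlation taken over the 6 group means instead, 4 of these 21 genes were again among the 3 of their member (AT3G02900, QWRF8, BGAL3 and AT1G18610), so the order within such lists depends on that choice.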

How the data were processed

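The authors deposited a table of raw counts per gene for 18 libraries, per the labels and its whole-number values. Per the submitters' processing notes, TAIR10, Trimmomatic, STAR and DESeq2 were used. Which program counted reads, with what strand setting and gene models, is not given in the sources used here. Each table column was assigned by its line, time and number. Gene symbols and sequences came from RefSeq's TAIR10.1, in which 23500 of 23790 identifiers were found.

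The quasi-likelihood F test of edgeR 4.0.16 (R 4.3.3) was applied after filterByExpr (minimum count 10, minimum total 15) had left 18344 genes and TMM had scaled the libraries. The fit held 6 group means over 18 libraries (12 residual degrees of freedom). A gene was called at an adjusted p under 0.05 (Benjamini-Hochberg, all tested genes), and an SE is the log2 change divided by the square root of F. The code was tested on simulated data. Shares were compared with exact permutation tests in SciPy 1.17.1. A near-identical copy means 95% identity over 50% of the transcript (BLAST 2.17.0).

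The members and lists were chosen with earlier results of these data known. Named genes are the members, NAA50 and up to 3 genes per list with the smallest adjusted p among those called in the line differences or responses at 12 and 24 h. Apart from this rule RBR1, MCM2, MCM4, WEE1, AT1G08180, AT1G10690 and the marker genes named were chosen after their values were seen. Of 108 listed genes, 3 were dropped because the annotation gives them no inhibitor name. Alternatives were DESeq2 1.42.0, no filter, scaling by total counts, only the groups compared, a replicate block and leaving out each library. Leaving out 2 doubted libraries together was added after seeing the data. Labels do not say how libraries of a group were made separate beyond pooling 4 plants each, so p-values measure the spread between these libraries.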

Additional observations from a re-analysis of the deposited data

Results flagged for a closer look

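The changes from 0 h differed between the lines, by the test of that difference in the edgeR fit, for 5 of the 9 tested genes at both times. The log2 response of the NAA50 line over the scrambled line was 3.03 at 12 h and 2.16 at 24 h for CYCD3;1, 3.71 and 3.70 for CYCD3;3, and 1.63 and 2.32 for CYCD1;1. Among the inhibitors it was 1.25 and 1.52 for KRP1, and 1.17 and 1.57 for SIM. Both times use the same 0 h libraries.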

How the results depend on the processing

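No called member change reversed in any alternative. Over the 108 tested member changes, 107 kept their call or lack of one with DESeq2, 108 without the filter and 103 with only the groups compared. Scaling by total counts kept 106, of which 3 were uncalled changes that switched sign. With a replicate block, 107 did so, and KRP1 from 0 to 24 h in the scrambled line was then called (log2 -0.28, adjusted p = 0.0426). The sample numbers share no stated source, and 21 of 45 correlations of deviations between same-numbered libraries were above 0.1, so the main fit stayed unpaired. Without both scrambled 0 h library 2 and NAA50 line 0 h library 3, 99 kept their call, with 3 members called in the 12 h response and 2 in the scrambled line from 0 to 24 h. With only the groups compared, 4 members were called in the NAA50 line from 12 to 24 h, not 2. Leaving out each library in turn gave 1 to 2 members called in the NAA50 line from 12 to 24 h, 2 to 6 in the scrambled line from 0 to 24 h, 1 to 3 from 12 to 24 h, 5 to 8 in the line difference at 12 h, 4 to 5 in the 12 h response and 4 to 6 in the 24 h response. Over all those refits 1894 member changes kept their call, 35 lost it and 15 gained it, and 36 uncalled changes switched sign. The cause was not tested. Scaling by total counts shifted the median of all genes from -0.03 to 0.14 in the line difference at 12 h, from 0.02 to -0.15 between the line differences and from -0.003 to 0.12 in the scrambled line from 0 to 24 h. It also moved the percent of called genes that were higher from 47.4 to 63.8 in the line difference at 12 h, from 65.5 to 35.3 between the line differences, from 51.7 to 39.7 in the NAA50 line from 12 to 24 h and from 47.0 to 61.6 in the scrambled line from 12 to 24 h. Counts of 12 to 64 per library limit SIM, and similar counts limit CYCD3;1 in the scrambled line.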
